A study of Mus musculus with 8 samples.

Results

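Wild-type mouse embryonic stem cells (mESCs) were compared before neural differentiation and after 6 days in N2B27 medium. The comparison was defined by the sample labels alone and takes the 2 wild-type (WT) samples of day 0 and the 2 WT samples of day 6, which are 4 of the 8 samples of the study. The cells were of the MPI-II line, from strain 129S2/SvPas, and are labelled WT, with no engineered allele given. At day 0 they had been kept on feeder-coated plates with serum, leukemia inhibitory factor (LIF) and the 2i inhibitors CHIR99021 and PD0325901. For day 6 the medium was replaced by N2B27, a serum-free medium, into which the cells were plated as a monolayer. PolyA+ RNA was sequenced, and expression was measured as FPKM, fragments scaled to transcript length and to the number of mapped fragments. The remaining 4 samples were Pcgf5-/- cells of the same line, grown and differentiated in the same way. They had been made by inserting drug-resistance cassettes at the second exon of Pcgf5 with TALENs and picking colonies, and the labels do not say whether their 2 samples per day come from separate colonies. Day, medium and the withdrawal of LIF, serum and 2i change together and cannot be told apart, and whether feeder cells were still present at day 6 is not stated.

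Naive mESCs hold a network of transcription factors around Oct4 (Pou5f1), Sox2 and Nanog, which LIF acting through Stat3 and the 2i inhibitors help to keep active. Without LIF, serum and 2i, mESCs grown as a monolayer in N2B27 leave this state, pass through an epiblast-like stage and turn into neuroepithelial cells that express Sox1 and Pax6. Notch signalling keeps part of these cells as progenitors, while proneural basic helix-loop-helix factors drive others to become neurons. Retinoic acid, Wnt, Fgf and Sonic hedgehog signals set the position of neural cells along the body axis.

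The files list 24849 genes, of which 13214 had a mean above 1 FPKM in at least 1 of the 4 conditions and were tested. In the 4 WT samples 11031 to 12064 genes were above 1 FPKM. FPKM values hold no fragment counts. The most common ratio among low values placed the depth of the other 3 WT samples at 1.16 to 1.29 times that of day 0 replicate 1. On the log2(FPKM + 1) scale, Pearson's r over the tested genes was 0.974 between the day 0 samples, 0.973 between the day 6 samples and 0.818 to 0.844 between days. Pcgf5 itself, the gene targeted in the other line, was at 5.18 and 3.63 FPKM in the day 0 WT samples and at 9.16 and 5.06 FPKM at day 6, and at 0.457 to 1.84 FPKM in the 4 Pcgf5-/- samples, below every WT sample. The deposited scaling left the median gene 0.22 higher at day 6 on the log2 scale, so the medians of gene groups below are to be read against 0.22 and not against 0.

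The samples were checked for their labelled cell types. All 25 core pluripotency genes had a mean above 1 FPKM at day 0, and all 25 still did at day 6. Of the 40 listed neural progenitor genes 12 did at day 0 and 34 at day 6. RNA of genes that mark other cells was present as well. Of 35 tested markers of feeder fibroblasts, 1 rose, 19 fell and 15 did not pass the test, with a median log2 difference of -1.52, and their summed FPKM made up 0.288% and 0.213% of all FPKM at day 0 against 0.106% and 0.157% at day 6. The collagen Col1a1 was at 117 and 64.6 FPKM at day 0 and at 6.86 and 11.3 at day 6. The share of all FPKM held by the feeder markers was thus larger in both day 0 samples than in both day 6 samples. A share of marker RNA is not a share of cells. Of the feeder markers still seen at day 6, Sparc was at 138 FPKM and Acta2 at 56.9 FPKM on average, and neither passed the test. In bulk RNA, fewer cells of a type and less RNA per cell cannot be told apart. Whether feeder RNA has a part in the falls described below was not tested.

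A large part of the transcriptome changed over the 6 days. In limma, 4522 genes were higher at day 6, which is 34.2% of those tested, and 2146 were lower, which is 16.2%, at an adjusted p under 0.05. Counts of rises and falls in the gene groups below are to be read against these shares. A change of at least 2-fold was held by 2460 of the genes that rose, 18.6% of those tested, and by 1069 of the genes that fell, 8.09%. In each of these genes both samples of day 6 lay beyond both samples of day 0. Differences between replicates were smaller. At least 2-fold apart on the same scale were 339 genes between the day 0 samples and 284 between the day 6 samples, against 3626 between the mean values of the days. Without WT day 6 replicate 2, 3313 genes were higher and 1389 lower. The surplus of rises depends on how samples are scaled to each other. With the samples scaled to a common median ratio, 3711 genes were higher and 2940 lower, and with quantile normalization 3181 and 3020, so that the share of rises among the calls went from 67.8% to 55.8% and 51.3%. In all 3 scalings 2872 genes were higher and 2052 were lower, and no gene called in the deposited scaling was called in the opposite direction in another.

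The 10 largest rises by log2 difference were all in genes at 19.9 FPKM or less in each day 0 sample, the highest being Crabp1. Nnat, an imprinted gene for a membrane protein of the developing brain, was at 3.65 and 1.85 FPKM at day 0 and at 337 and 358 FPKM at day 6, a rise of 6.58 ± 0.25 (SE, n = 2 per day) on the log2 scale with an adjusted p of 4.2e-06 in limma. Crabp1 and Crabp2, which bind retinoic acid in the cytoplasm, came next among the abundant genes. Crabp1 went from 19.9 and 12.4 FPKM to 850 and 949 FPKM, and Crabp2 from 6.76 and 4.23 FPKM to 365 and 521 FPKM. The neural transcription factors Sox11 and Sox3 were 124-fold and 92.7-fold higher by the ratio of means. Sox11 was at 1.06 and 0.424 FPKM at day 0 and at 97.9 and 85.4 FPKM at day 6. Dbx1, a homeobox factor of interneuron progenitors, and Fabp7, a fatty acid carrier of radial glia, were listed at 0 in both day 0 samples, so no fold can be given. Dbx1 reached 95.4 and 71.1 FPKM and Fabp7 75.9 and 41.5 FPKM. The receptors Cntfr, for ciliary neurotrophic factor, and Ednrb, for endothelins, rose 216-fold and 271-fold from under 1 FPKM. Insl6, a member of the insulin and relaxin family, completed the group. It was at 0.971 and 0.822 FPKM at day 0 and at 71.9 and 228 FPKM at day 6, so the day 6 samples were both high but far apart. Nnat lies within the locus of Blcap, which rose by 0.70 on the log2 scale, and strand was not stated, so reads of the overlap cannot be told apart.

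The 10 largest falls held naive pluripotency factors and genes of the stem cell state. Crxos, a homeobox gene expressed in mESCs, was at 129 and 147 FPKM at day 0 and at 1.54 and 0.862 FPKM at day 6, a 115-fold lower mean. Spp1, the secreted matrix protein osteopontin, fell from 377 and 363 FPKM to 10.8 and 8.47 FPKM. The naive factors Klf4 and Tfcp2l1 were 42.7-fold and 47.6-fold lower, and Spic, an Ets factor, was 91.1-fold lower. Ly6a, the surface antigen Sca-1, was 66.9-fold lower, and the unnamed gene 2210409E12Rik was 141-fold lower. Rpl10l and Rpl39l, copies of ribosomal protein genes, and the pseudogene Oaz1-ps stood among the 10 as well. Their values are uncertain, since reads can be shared with near-identical copies, and the Oaz1-ps locus overlaps that of Oaz1. Counted over all genes, 216 rose and 106 fell at least 8-fold on the log2(FPKM + 1) scale. That scale gives low genes a smaller fold than the ratio of means used for single genes above. From under 1 FPKM in both day 0 samples to above 10 FPKM in both day 6 samples went 112 genes, against 20 in the opposite direction.

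**Figure D1:**
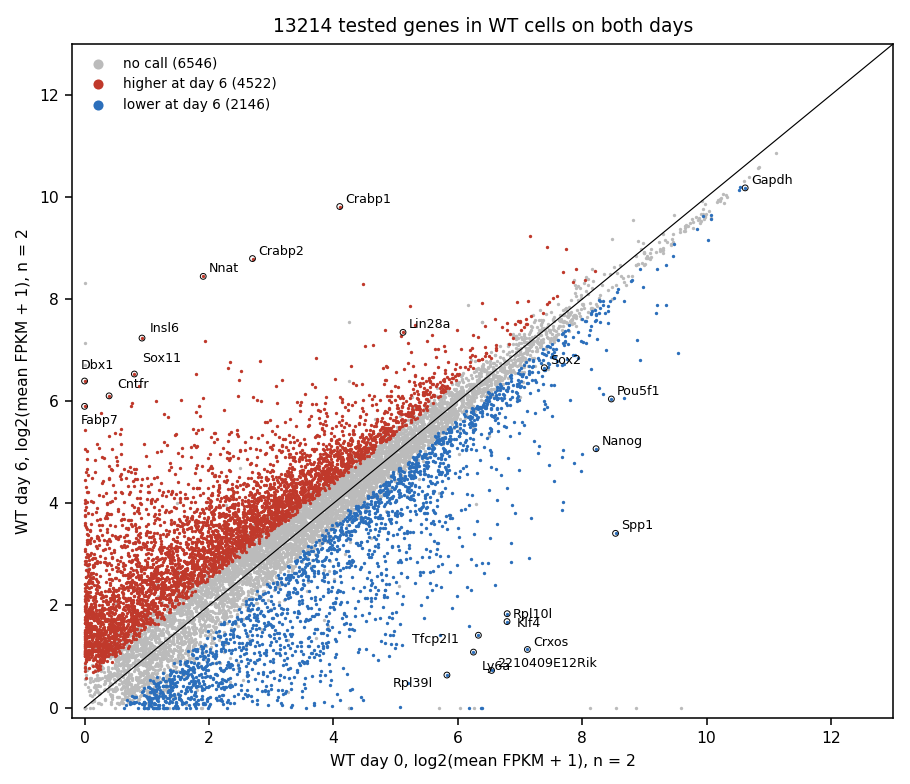
Mean FPKM of the 13214 tested genes in WT cells at day 0 (x axis) and day 6 (y axis), both as log2(mean FPKM + 1) with n = 2, coloured by the limma call. The 4522 genes higher at day 6 lie above the diagonal line and the 2146 lower genes below it. Labelled genes include Nnat, Crabp1 and Crabp2 among the risen ones and Spp1 and Klf4 among the fallen ones. Isolated grey points far from the line are mostly short RNA genes high in a lone sample.

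The core pluripotency genes fell together. Of 25 tested, 21 fell, 1 rose and 3 did not pass the test, and the median log2 difference was -2.53. Nanog was at 306 and 290 FPKM at day 0 and at 43.0 and 22.2 FPKM at day 6, a 9.13-fold lower mean. Pou5f1, which encodes Oct4, was at 333 and 374 FPKM and fell to 93.8 and 36.2 FPKM. Both genes were still well expressed at day 6, and day 6 replicate 1 was higher than replicate 2 in both. Zfp42, the stem cell marker Rex1, fell from 233 and 272 FPKM to 33.5 and 14.1 FPKM, with the replicates in the same order. Fbxo15, an F-box protein and Oct4 target, and Tcl1, an Akt cofactor, were 13.5-fold and 30.7-fold lower. Sox2, which is shared by mESCs and neural progenitors, changed little. It was at 175 and 159 FPKM at day 0 and at 98.3 and 102 FPKM at day 6, a fall of 1.67-fold. Dppa3, a gene of the germ line and the naive state, was at 9.72 and 18.0 FPKM at day 0 and at 18.7 and 7.78 FPKM at day 6, so its samples overlapped. The member that rose was Lin28a, an RNA-binding protein that blocks let-7 maturation, from 48.2 and 19.3 FPKM to 157 and 167 FPKM.

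The promoters of Nanog and Zfp42 are shown because both genes were among the fallen core genes and both windows hold the letters ATGCAAA, which are most of the octamer bound by Oct4. The sequences are RefSeq's windows of 250 bases before to 50 bases after the gene start in build GRCm38.p6, on the strand of the gene, with the match in capitals, here its reverse complement. Nanog lies at chr6:122707239-122707538 on the plus strand, with the match beginning 75 bases before the start, and Zfp42 at chr8:43306960-43307259 on the minus strand, with the match 185 bases before it.
Nanog: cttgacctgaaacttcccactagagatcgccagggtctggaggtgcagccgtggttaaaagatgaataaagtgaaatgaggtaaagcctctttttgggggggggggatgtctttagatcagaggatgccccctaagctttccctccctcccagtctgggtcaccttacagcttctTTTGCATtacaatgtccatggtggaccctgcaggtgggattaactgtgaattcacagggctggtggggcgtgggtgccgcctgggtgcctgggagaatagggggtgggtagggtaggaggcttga
Zfp42: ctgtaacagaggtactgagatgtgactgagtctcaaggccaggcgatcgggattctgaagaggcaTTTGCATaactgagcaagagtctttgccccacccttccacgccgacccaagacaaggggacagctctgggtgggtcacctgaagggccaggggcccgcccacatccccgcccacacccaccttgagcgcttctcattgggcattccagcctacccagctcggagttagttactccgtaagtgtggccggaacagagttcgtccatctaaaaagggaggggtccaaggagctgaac
On either strand ATGCAAA was found in 4.59% of the 27025 promoter windows. A match describes letters and does not show binding.

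The naive pluripotency genes fell as well. Of 22 tested, 19 fell, 1 rose and 2 did not pass, with a median log2 difference of -2.45. Esrrb, an orphan nuclear receptor of the naive network, was at 144 and 138 FPKM at day 0 and at 7.77 and 5.45 FPKM at day 6, 21.4-fold lower. Tbx3, a T-box factor, was 35.2-fold lower, falling from 79.4 and 64.1 FPKM to 3.32 and 0.752 FPKM. Klf4 fell from 127 and 92.9 FPKM to 3.57 and 1.58 FPKM. These 3 factors thus ended below 10 FPKM in both samples. The summed FPKM of the 22 genes was 1406 and 1336 at day 0 and 164 and 128 at day 6. In the same samples the summed feeder markers went from 1075 and 823 to 384 and 580.

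Genes of LIF and Stat3 signalling, which the day 0 medium stimulates, were mostly lower. Of 22 tested members, 12 fell and 2 rose, and the median was -1.18. Socs3, a feedback inhibitor and direct Stat3 target, was at 34.3 and 28.2 FPKM at day 0 and at 5.0 and 3.98 FPKM at day 6. Stat3 itself was 5.07-fold lower and Junb, an AP-1 subunit, was 8.12-fold lower. Of the receptor chains, Lifr fell 2.23-fold, whereas Il6st, which encodes gp130, was at 17.3 FPKM on average at day 0 and 14.5 FPKM at day 6 and did not pass the test. Jak2, a cytoplasmic kinase that binds receptor chains, was 6.89-fold higher, from 4.26 and 3.77 FPKM to 23.2 and 32.1 FPKM. Of the genes named here, Socs3, Stat3, Junb and Lifr were lower and Jak2 was higher.

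Genes of the primed epiblast, the stage that follows the naive state, moved in both directions. Of 22 tested, 12 rose and 3 fell. Pou3f1, a POU factor of the late epiblast and neuroectoderm, rose by 2.51 on the log2 scale, and Sox4 by 4.08. The defining marker Fgf5 was at 0.0301 and 0.0763 FPKM at day 0 and at 3.33 and 0.525 FPKM at day 6 and did not pass the test. Otx2, an epiblast and anterior neural factor, was at 15.1 and 8.49 FPKM at day 0 and at 11.9 and 7.03 FPKM at day 6, so its samples overlapped. Foxd3 and Etv5, a forkhead and an Ets factor, fell by 2.94 and 2.25 on the log2 scale. The largest rises of this group were those of Sox11, Sox3 and Sfrp2, which neural progenitors also use.

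**Figure D2:**
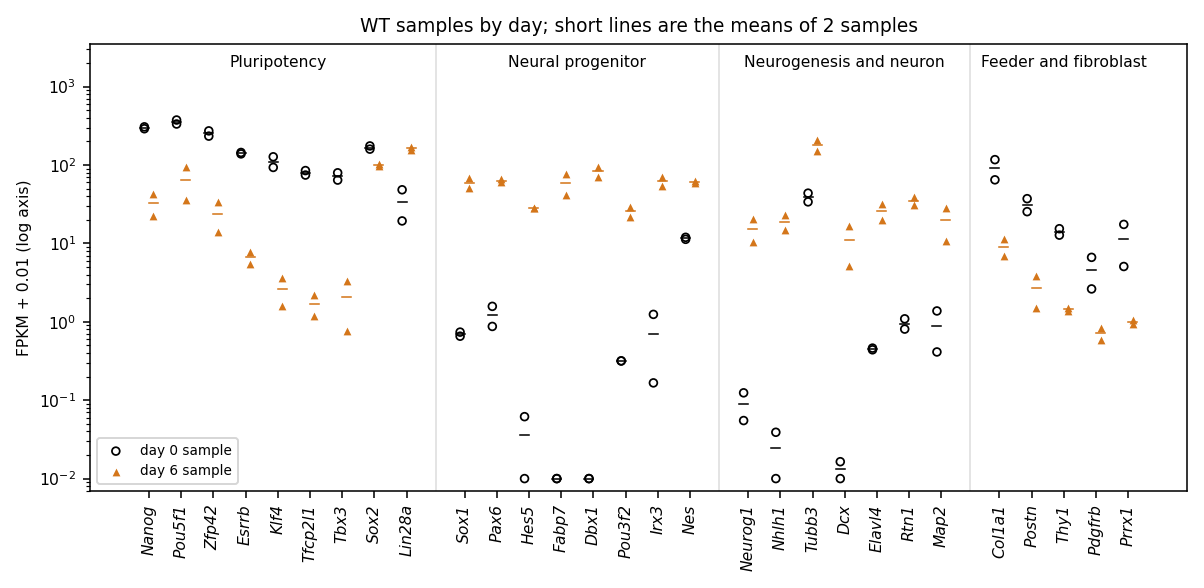
FPKM + 0.01 on a log axis for selected genes of 4 groups in each WT sample, with open circles for day 0, triangles for day 6 and short lines for the means of 2 samples. The plotted pluripotency genes fell, apart from Lin28a, which rose, and with Sox2 changing least, neural genes rose, and the feeder markers Col1a1, Postn, Thy1, Pdgfrb and Prrx1 were lower at day 6.

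The neural progenitor genes rose together. Of 35 tested, 31 rose, 1 fell and 3 did not pass, and the median log2 difference was 2.73. Sox1, the earliest marker of neuroectoderm, was at 0.728 and 0.645 FPKM at day 0 and at 50.3 and 67.9 FPKM at day 6, 86.1-fold higher. Pax6, a paired-box factor of neural progenitors, went from 1.56 and 0.862 FPKM to 60.3 and 65.9 FPKM. Both markers lay close together in the 2 day 6 samples. Nes, which encodes the filament protein nestin, was already expressed at day 0 and rose 5.20-fold, from 11.9 and 11.3 FPKM to 58.2 and 62.3 FPKM. Irx3, an Iroquois factor of the neural plate, went from 1.23 and 0.156 FPKM to 53.6 and 69.6 FPKM. Vim, another filament gene of progenitors, was at 236 FPKM on average at day 0 and 307 FPKM at day 6 and did not pass the test. Mapt, a microtubule protein of neurons, did not pass either, and Plagl1, an imprinted zinc finger gene, fell by 1.03 on the log2 scale.

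Families of neural transcription factors followed the same course. Of 14 tested Sox genes, 11 rose and 2 fell, the latter being Sox2 and Sox15, which is expressed in mESCs. Of 14 tested Pax, Zic and POU class III genes, including the long noncoding RNA Pantr1 next to Pou3f3, 12 rose and none fell. The POU factor Pou3f2, also called Brn2, was at 0.307 and 0.306 FPKM at day 0 and at 29.1 and 21.9 FPKM at day 6. Pax3 and Pax7, factors of the dorsal neural tube, reached 9.92 and 16.1 FPKM and 6.98 and 7.76 FPKM from values of 0.0725 FPKM or less. Both had low levels beside Pax6. Zic2 rose by 0.96, while Zic5 did not pass the test.

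Notch pathway genes rose at the levels of ligand, modifier and target. Of 29 tested, 20 rose and 2 fell, with a median of 1.27. Dll1, a Notch ligand, was at 0.473 and 0.139 FPKM at day 0 and at 24.5 and 18.8 FPKM at day 6. Dtx4, a Notch modulator of the Deltex family and the largest rise of the list, went from 0.778 and 0.212 FPKM to 43.7 and 42.1 FPKM. Lfng, a glycosyltransferase that modifies Notch receptors, went from 0.572 and 0.268 FPKM to 22.9 and 35.0 FPKM. The targets Hes5 and Hes3, repressors of neurogenesis, were near 0 at day 0. Hes5 was at 0 and 0.0516 FPKM at day 0 and at 27.9 and 28.2 FPKM at day 6, and Hes3, listed at 0 in both day 0 samples, reached 14.3 and 17.0 FPKM. Hes1, a Notch target that mESCs already use, was at 20.1 FPKM on average at day 0 and 27.4 FPKM at day 6 and did not pass the test. Of the receptors, Notch1 rose 1.93-fold, a call lost with the other scalings, and Notch3 5.32-fold. Rbpj, the DNA-binding partner of Notch, fell 1.89-fold.

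The Hes5 promoter is shown because Hes5 is a direct Notch target and its window holds the Rbpj core letters TGGGAA on both strands, in capitals, at 82 bases and, as the reverse complement, at 226 bases before the start. It lies at chr4:154960673-154960972 on the plus strand in GRCm38.p6.
Hes5: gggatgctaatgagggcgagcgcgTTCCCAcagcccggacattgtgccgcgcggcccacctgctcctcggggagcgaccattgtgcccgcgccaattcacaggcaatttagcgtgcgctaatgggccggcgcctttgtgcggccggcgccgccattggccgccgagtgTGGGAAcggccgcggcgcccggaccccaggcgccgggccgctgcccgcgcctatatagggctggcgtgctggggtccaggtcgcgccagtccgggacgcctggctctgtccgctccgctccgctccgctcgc
These letters were found on either strand in 25.5% of all promoter windows, so a match is common. Of the 29 tested Notch genes only 23 had a window, and 4 of these 23, or 17.4%, held a match, a smaller share than over all windows. Members without a window could not be checked.

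Proneural factors and other factors of early neurons were mostly higher. Of 30 tested proneural and early neuronal factors, 26 rose and 1 fell, with a median of 2.31. The rises include Id2, which is in this list although it inhibits proneural factors. Neurog1, a basic helix-loop-helix factor that starts neurogenesis, was at 0.045 and 0.114 FPKM at day 0 and at 20.3 and 10.5 FPKM at day 6. Nhlh1, a factor of newborn neurons, reached 23.2 and 14.7 FPKM. In both of these genes the day 6 samples were far above both day 0 samples. The member that fell was Eomes, which is also a mesendoderm factor. Markers of later cortical neurons were not reached, since Tbr1 and Neurod6 stayed below 1 FPKM on average.

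Structural genes of neurons were mostly higher as well. Of 41 tested, 33 rose, 1 fell and 7 did not pass, with a median of 2.36. Tubb3, neuronal beta-III tubulin, was at 33.8 and 43.7 FPKM at day 0 and at 210 and 149 FPKM at day 6, 4.64-fold higher. Dcx, a microtubule protein of migrating neurons, rose from at most 0.00642 FPKM to 16.7 and 5.14 FPKM. Elavl4, a neuronal RNA-binding protein, was 59.1-fold higher and Map2, a dendritic microtubule protein, 22.2-fold. Map2 and Dcx were both higher in replicate 1 than in replicate 2. Stmn2, a neuronal stathmin, went the other way, from 132 and 113 FPKM to 68.0 and 64.2 FPKM. Of 65 listed genes of synapses and ion channels only 35 were high enough to be tested, of which 25 rose and 1 fell. Syp, the vesicle protein synaptophysin, rose to 3.47 and 2.71 FPKM. Cplx2, a complexin of vesicle release, reached 17.8 FPKM in both samples. The glutamate transporters Slc17a6 and Slc17a7 and the GABA transporter Slc32a1 stayed below 1 FPKM on average. Grin1, an NMDA receptor subunit, fell from 3.91 and 3.52 FPKM to 0.346 and 0.238 FPKM.

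Axon guidance genes rose in 32 of 44 tested members and fell in 3. The ephrin Efna5 was at 0.816 and 0.356 FPKM at day 0 and at 19.4 and 23.6 FPKM at day 6, and the receptor Epha7 went from 0.730 and 0.516 FPKM to 15.8 and 31.6 FPKM. Robo2, a receptor for Slit proteins, and Dcc, a netrin receptor, rose by 2.23 and 2.33 on the log2 scale. Nrp2, a semaphorin receptor, fell by 1.33. Of the Eph system both an ephrin and a receptor rose, and of the others named here the receptors Robo2 and Dcc.

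Cell adhesion genes showed an exchange of cadherins. Cdh1, E-cadherin, was at 185 and 128 FPKM at day 0 and at 34.7 and 33.3 FPKM at day 6, 4.61-fold lower. Cdh2, N-cadherin, was at 2.46 and 2.48 FPKM at day 0 and at 84.5 and 97.5 FPKM at day 6, 36.9-fold higher. At day 6 Cdh2 was above Cdh1 in both samples, and at day 0 it was below it in both. Other epithelial genes moved in both directions. Of 32 tested adhesion genes 15 rose and 4 fell, and Epcam, an epithelial surface protein, rose 1.69-fold. The desmosomal cadherin Dsg2 fell 9.24-fold, whereas the keratin Krt18 rose from 5.58 and 2.27 FPKM to 67.8 and 132 FPKM. The rise of Epcam was not called with the other scalings. Of the list 9 genes rose without WT day 0 replicate 2 or without WT day 6 replicate 2, and 10 rose and 5 fell with quantile normalization.

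Regional markers rose in part. Of 41 listed genes of forebrain and midbrain, 23 could be tested, and 17 rose and none fell. The largest of these rises were those of Irx3, Meis1, Nr2f1 and Irx5, which are also expressed in other regions. Forebrain factors such as Six3, Rax, Emx2 and Dlx2 stayed below 1 FPKM on average at both days, and Six3 was at 0.252 and 0.249 FPKM at day 6. Of 35 tested hindbrain and spinal cord genes 21 rose and 7 fell. Hoxa2 and Hoxb2 were among the largest rises of this list, with Dbx1. Hoxa2, which patterns the hindbrain, was at 0.126 and 0.212 FPKM at day 0 and at 27.2 and 38.3 FPKM at day 6, and Hoxb2 went from 0.415 and 0.585 FPKM to 28.3 and 41.7 FPKM.

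Of the 39 Hox genes 25 were tested, and the rises and falls were found in different paralog groups. Hox genes with low paralog numbers lie at the 3′ end of each cluster and are expressed towards the head. Of the 12 genes of paralog groups 1 to 4, 11 were tested and 10 rose, and none fell. Their summed FPKM was 6.80 and 7.59 at day 0 and 112 and 122 at day 6. Of the 8 genes of groups 5 to 7, 4 were tested, of which Hoxa5 rose, though not with quantile normalization, and none fell. Of the 19 genes of groups 8 to 13, 10 were tested, none rose and 8 fell, and the sum went from 37.3 and 27.2 FPKM to 8.74 and 2.04 FPKM. Hoxb9 was at 11.6 and 5.79 FPKM at day 0 and at 0.845 and 0.531 FPKM at day 6, and Hoxc13 at 7.21 and 7.15 FPKM against 0.991 and 0.284 FPKM. Hoxb8, of the same groups, had a higher mean at day 6, at 4.07 and 0.401 FPKM, and did not pass the test. The feeder markers fell between the same samples, and their part in the day 0 values of these Hox genes was not tested.

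**Figure D3:**
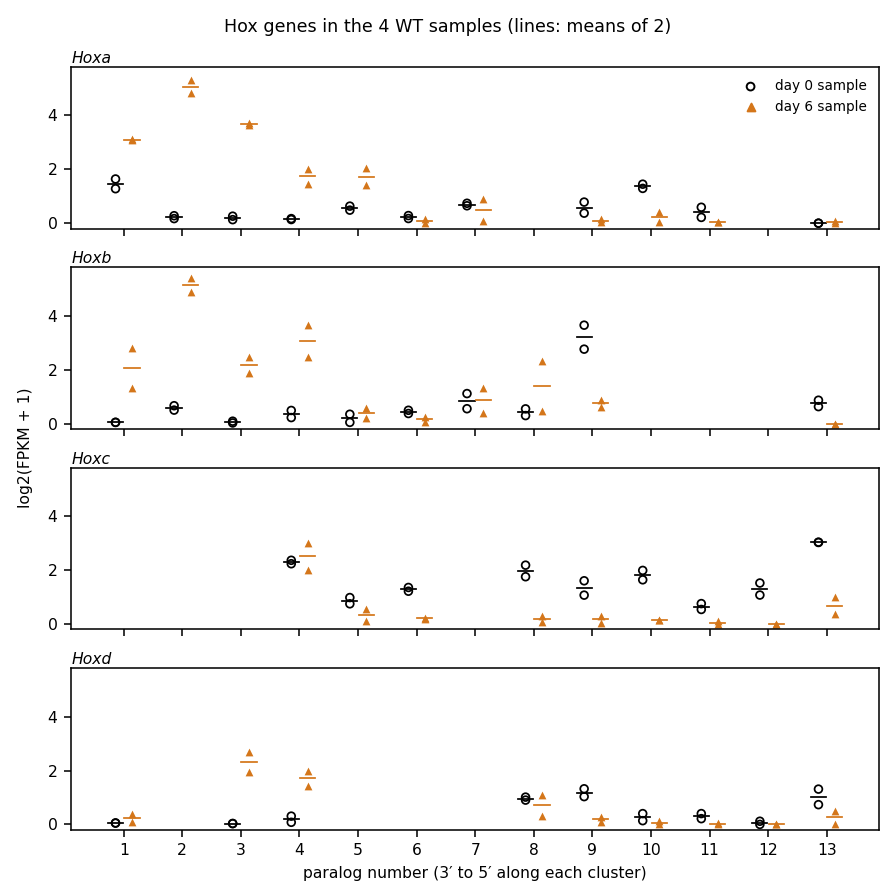
Hox genes of the 4 clusters, by paralog number on the x axis, in each WT sample as log2(FPKM + 1), with open circles for day 0, triangles for day 6 and lines for means of 2 samples. The called genes of groups 1 to 4 rose, with Hoxa2 and Hoxb2 highest, and most genes of groups 8 to 13 were near 0 at day 6, with Hoxb8 highest, in replicate 1.

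Genes of retinoic acid signalling rose without exception among those called. Of 23 tested, 18 rose and none fell, with a median of 2.02. Of the receptors, Rarb was at 0.427 and 0.198 FPKM at day 0 and at 8.14 and 7.25 FPKM at day 6, and Rara rose 1.97-fold. Rarg was at 13.7 and 18.6 FPKM at day 0 and at 14.9 and 9.49 FPKM at day 6 and did not pass the test. The enzymes that degrade retinoic acid rose. Cyp26a1 went from 0.250 and 0.106 FPKM to 6.48 and 9.65 FPKM, and Cyp26b1 from 1.12 and 0.112 FPKM to 25.2 and 13.4 FPKM. Aldh1a2, the main synthesizing enzyme of the embryo, stayed below 1 FPKM in all 4 samples and was not tested. Stra6, which takes up retinol, reached 3.29 and 6.96 FPKM. Meis1 and Nr2f1, factors that respond to retinoic acid in many cells, rose by 4.93 and 4.59 on the log2 scale.

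The promoters of Cyp26a1 and Rarb are shown because both encode parts of the pathway, both rose and both windows hold the direct repeat called DR5, the element bound by retinoic acid receptors, in capitals. Cyp26a1 lies at chr19:37697558-37697857 on the plus strand, with the element as its reverse complement 32 bases before the start, and Rarb at chr14:16575427-16575726 on the minus strand, with the element 53 bases before the start, in GRCm38.p6.
Cyp26a1: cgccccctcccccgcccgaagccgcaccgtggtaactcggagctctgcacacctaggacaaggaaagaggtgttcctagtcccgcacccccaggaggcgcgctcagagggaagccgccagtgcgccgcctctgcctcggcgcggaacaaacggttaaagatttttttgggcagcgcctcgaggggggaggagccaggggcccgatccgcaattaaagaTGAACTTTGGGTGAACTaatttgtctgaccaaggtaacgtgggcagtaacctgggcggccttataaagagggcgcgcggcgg
Rarb: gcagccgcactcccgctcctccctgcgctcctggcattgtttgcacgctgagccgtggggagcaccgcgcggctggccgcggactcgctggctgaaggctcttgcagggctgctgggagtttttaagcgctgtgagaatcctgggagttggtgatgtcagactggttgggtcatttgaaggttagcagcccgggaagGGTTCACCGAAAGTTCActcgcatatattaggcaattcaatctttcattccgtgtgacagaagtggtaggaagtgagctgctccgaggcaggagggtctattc
A DR5, searched on both strands, was present in 26 of the 27025 windows, or 0.0962%. In the retinoic acid list 19 of the 23 tested members had a window, and these 2 held it. Over all tested genes 3 held it, the other being Syndig1, a synapse protein, which fell by 1.17 on the log2 scale.

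Genes of other signals that pattern neural tissue were counted by pathway. In the Nodal and TGF-beta group 14 of 38 tested genes rose, or 36.8%, which is near the 34.2% of all genes. In this group 12 fell, or 31.6%, against 16.2% of all genes. Nodal, a ligand that opposes neural fate, was at 37.2 and 28.6 FPKM at day 0 and at 6.78 and 3.61 FPKM at day 6, and its inhibitor and target Lefty2 was 13.8-fold lower. Lefty1 was at 6.97 and 25.4 FPKM at day 0 and at 31.1 and 13.8 FPKM at day 6, so its samples overlapped. The receptor Tgfbr1 was 2.94-fold higher, and Smad1, an effector of BMP signals, 4.35-fold. In the BMP group 11 of 22 rose and 4 fell, or 7 and 4 with quantile normalization. Without WT day 0 replicate 2, 7 rose. Bmp4 fell 4.29-fold and the antagonist Grem1 34.3-fold, and the target Id2 rose from 14.5 and 5.79 FPKM to 51.8 and 73.5 FPKM. Grem1 is also expressed by fibroblasts.

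In the Fgf group 16 of 30 tested genes rose and 5 fell, which is 53.3% and 16.7%. The ligand Fgf4, which mESCs secrete, fell from 75.2 and 49.8 FPKM to 9.35 and 2.59 FPKM, and Fgf15, a ligand of the neural tube, rose from 0.246 and 0.486 FPKM to 20.3 and 18.6 FPKM. All 3 tested receptor kinases were higher, Fgfr1 by 0.98, Fgfr2 by 3.59 and Fgfr3 by 3.66 on the log2 scale. Of the ligands named here, Fgf4 was the higher at day 0 and Fgf15 at day 6.

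In the Wnt group 26 of 51 rose and 5 fell, which is 51.0% and 9.80%. The receptor Fzd5 fell 18.0-fold, and the receptor Fzd3, needed for axon tracts, rose from 0.346 and 0.265 FPKM to 22.4 and 20.2 FPKM. Sfrp2, a secreted Wnt antagonist, was at 3.01 and 2.67 FPKM at day 0 and at 147 and 142 FPKM at day 6. Axin2, a general target of the pathway, was at 6.83 and 10.3 FPKM at day 0 and at 9.25 and 10.4 FPKM at day 6 and did not pass the test. In the Hedgehog group 12 of 19 tested genes rose and 1 fell. Smo, the signal transducer, and Gli3, the main repressor form of the effectors, were 7.16-fold and 8.26-fold higher. The ligand Shh stayed below 1 FPKM in all 4 samples, and the targets Ptch1 and Gli1 did not pass the test, at 9.49 and 1.88 FPKM on average at day 6.

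Regulators of growth and imprinted genes are read against the 34.2% of all genes that rose and the 16.2% that fell. Of 18 tested growth regulators of the Lin28, Hmga2 and Igf2bp group, 10 rose, or 55.6%, and none fell. Lin28b went from 4.25 and 1.86 FPKM to 26.4 and 34.4 FPKM and Hmga2, a chromatin protein of fetal stem cells, from 16.6 and 21.2 FPKM to 70.6 and 92.2 FPKM. Of 31 tested imprinted genes 19 rose, or 61.3%, and 3 fell, or 9.68%, with a median of 1.05. Besides Nnat, Mest, a hydrolase-like protein, was at 18.6 and 23.9 FPKM at day 0 and at 276 and 351 FPKM at day 6. Cdkn1c, a cell cycle inhibitor, rose 25-fold and Peg10, a gene of retroviral origin, 6.2-fold. H19 rose from 33.2 and 8.67 FPKM to 55.6 and 104 FPKM, while Igf2, from the same domain, did not pass the test at 12.5 and 15.1 FPKM on average. Slc38a4, an amino acid transporter, fell 4.09-fold.

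Polycomb genes encode subunits of complexes that modify histones and repress genes. Of 38 tested polycomb genes 14 rose and 8 fell, which is 36.8% and 21.1% and near the 34.2% and 16.2% of all genes, with a median of 0.32. Without WT day 0 replicate 2 or WT day 6 replicate 2, 4 fell. In the repressive complex PRC1, Phc2 rose from 6.91 and 8.25 FPKM to 58.3 and 65.5 FPKM, and Ring1, Cbx2 and Bmi1 rose 5.51-fold, 4.94-fold and 2.77-fold. In PRC2, which methylates histone H3, the core subunits Suz12 and Eed fell 2.26-fold and 2.14-fold, while the enzyme Ezh2 rose 1.72-fold. Pcgf5, a PRC1 subunit, was higher on average at day 6, by 0.55 ± 0.28 (SE) on the log2 scale, and did not pass the test, with an adjusted p of 0.135 in limma. With quantile normalization 11 of the polycomb genes rose and 9 fell, and with median-ratio scaling 11 and 10.

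Among DNA methylation genes 6 of 22 rose and 9 fell, which is 27.3% and 40.9% against 34.2% and 16.2% of all genes. The dioxygenases Tet1 and Tet2 fell 4.77-fold and 5.50-fold and Tet3 rose 13.2-fold, from 0.736 and 0.827 FPKM to 10.8 and 9.77 FPKM. Dnmt3l, a cofactor of new methylation, was at 32.2 and 31.3 FPKM at day 0 and at 13.7 and 2.1 FPKM at day 6. Of 26 tested BAF remodelling genes 18 rose and 1 fell. The ATPase subunit Smarca2 rose 9.53-fold. Actl6b, the neuronal form of an actin-like subunit, was listed at 0 at day 0 and reached 1.89 and 0.848 FPKM. The progenitor form of that subunit, Actl6a, fell 1.35-fold. Of 307 tested genes named Zfp, which are mostly zinc finger factors, 158 rose and 35 fell, against 34.2% and 16.2% over all genes, with a median of 0.60. With quantile normalization 97 rose and 60 fell.

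Metabolic genes moved in opposite directions by pathway. Of 28 tested glycolysis genes 17 fell and 2 rose, with a median of -0.75, and 11 fell without WT day 0 replicate 1 or WT day 6 replicate 2. Ldha, lactate dehydrogenase, was at 526 and 452 FPKM at day 0 and at 109 and 112 FPKM at day 6. Pfkp, the platelet form of phosphofructokinase, fell 16.9-fold and the hexokinases Hk1 and Hk2 4.47-fold and 2.84-fold. The glucose transporter Slc2a1 rose 2.09-fold. Of 34 genes of glutathione, serine and threonine metabolism 15 fell and 6 rose, and Tdh, the threonine dehydrogenase on which mESCs depend, was at 184 and 221 FPKM at day 0 and at 19 and 7.99 FPKM at day 6. Cholesterol synthesis genes rose, 16 of 24 tested, with 1 fall. Lss, lanosterol synthase, rose 2.79-fold. Ebp, a sterol isomerase, was the member that fell.

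Ribosome, respiration and cell cycle genes moved less. None of 84 cytosolic ribosomal protein genes rose and 11 fell, with a median of -0.28. This count depended on scaling, since 72 fell with median-ratio scaling and 9 fell and 1 rose with quantile normalization, and 5 to 14 fell when a WT sample was left out, with 5 without WT day 6 replicate 2 and 6 and 7 without WT day 0 replicate 2 and WT day 6 replicate 1. Of 78 genes of oxidative phosphorylation 1 rose and 20 fell, or 37 with median-ratio scaling. Without WT day 0 replicate 2, WT day 6 replicate 1 or WT day 6 replicate 2 these falls were 6, 8 and 7. The largest fall was that of Cox7a1, a muscle form of a cytochrome oxidase subunit, from 42.7 and 49.4 FPKM to 4.61 and 4.24 FPKM. Of 47 cell cycle genes 12 rose and 8 fell, with a median of 0.09. These are 25.5% and 17.0%, against 34.2% and 16.2% of all genes. Ccnd2, a cyclin of G1 phase, rose 6.43-fold and Mcm4, a helicase subunit of DNA replication, fell 1.64-fold.

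**Figure D4:**
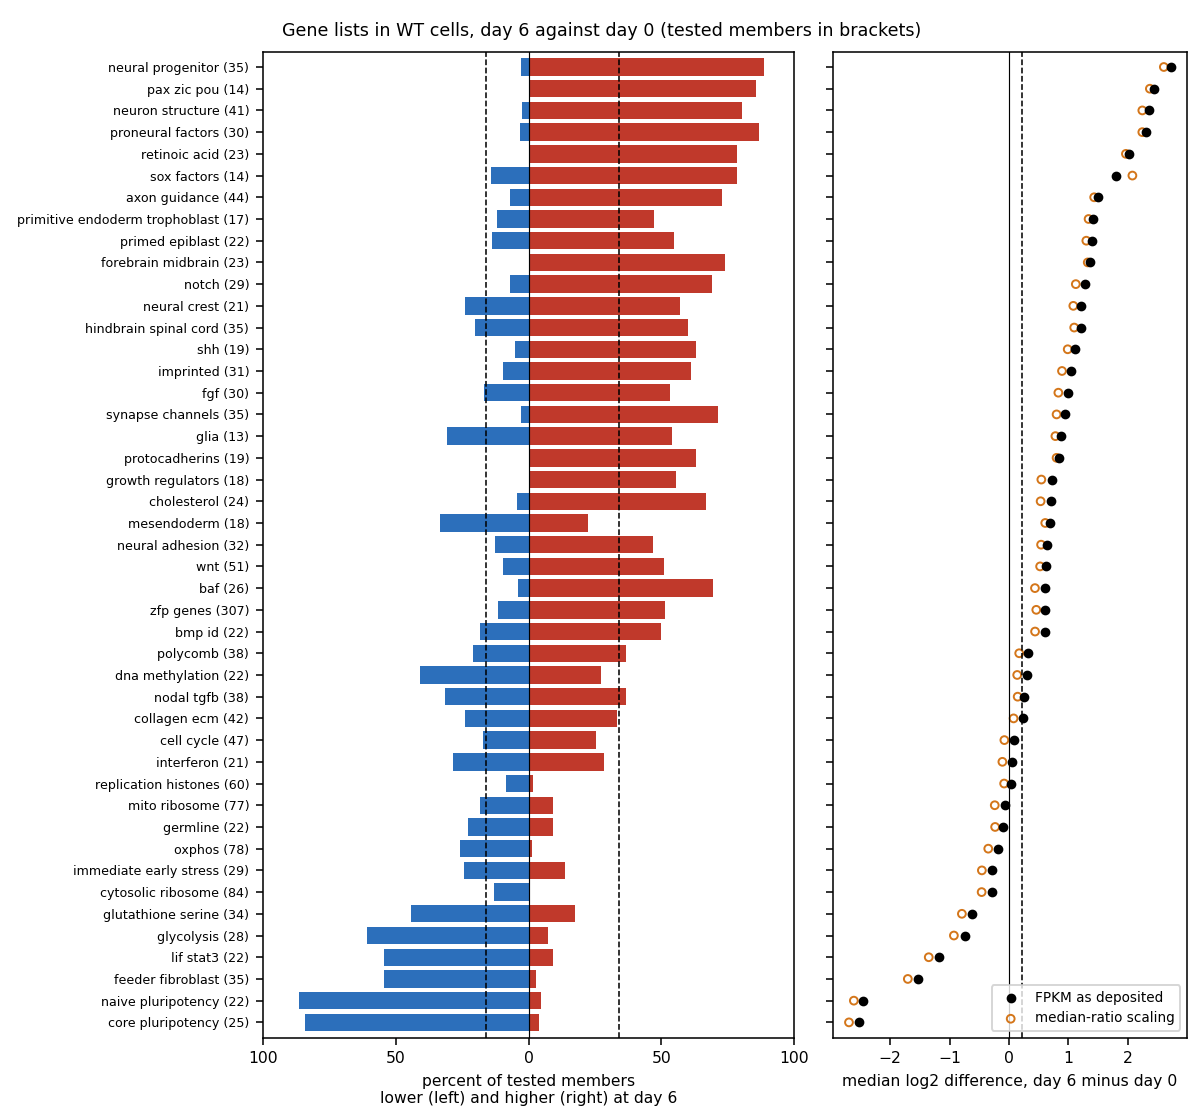
Left, the percent of tested members of each gene list that were lower (blue, to the left) or higher (red, to the right) at day 6 in WT cells, with dashed lines at the shares over all tested genes, 16.2% and 34.2%. Right, the median log2 difference of each list as deposited (black) and with median-ratio scaling (orange), with a dashed line at the median of all genes, 0.22; neural lists lie at the top and pluripotency lists at the bottom under both.

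Genes of other cell types were checked in the same samples. Of 17 tested genes of primitive endoderm and trophoblast 8 rose and 2 fell, and their summed FPKM was 361 in day 6 replicate 1 against 94.7 in replicate 2. The basement membrane collagen Col4a1 was at 105 and 20.6 FPKM at day 6, and the endoderm factors Gata4 and Gata6 were at 10.6 and 5.70 FPKM in replicate 1 and at 0.706 and 0.405 FPKM in replicate 2. These markers were thus high mainly in replicate 1, and neither factor passed the test. The count of rises was 15 without WT day 6 replicate 2, 4 without WT day 6 replicate 1, 5 without WT day 0 replicate 1 and 3 without WT day 0 replicate 2. Of 18 tested mesendoderm genes 4 rose and 6 fell, and the mesoderm marker Brachyury did not pass the test. The 4 rises became 8 without WT day 6 replicate 2, 2 without WT day 0 replicate 1 and 1 without WT day 0 replicate 2. Of 21 tested neural crest genes 12 rose and 5 fell, while Sox10, the defining factor of migrating crest, stayed below 1 FPKM in all 4 samples. Of 13 tested glial genes 7 rose and 4 fell, with the astrocyte marker Gfap at or below 0.0917 FPKM. Of the blood, vessel and muscle genes 7 of 20 were tested, 1 rose and 1 fell, and the blood marker Ptprc was at or below 0.0452 FPKM. The muscle actin Actc1 was the member that rose, to 2.61 and 9.49 FPKM.

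Genes that rose tended to be long and low at day 0. The median locus length, introns included, was 27.4 kb for genes that rose at least 2-fold, 19.4 kb for those that fell at least 2-fold and 20.1 kb for the rest. Of the 537 tested genes with a locus over 200 kb, 54.6% rose and 9.31% fell, against 27.9% and 17.0% of the 1923 genes under 5 kb. The share of rises increased in every length class between them. Genes between 0.1 and 1 FPKM at day 0 rose in 63.0% of 1691 cases and fell in 1.66%, whereas those above 100 FPKM rose in 4.37% of 709 and fell in 32.4%. A gene that was near 0 at day 0 was tested only if it was above 1 FPKM in another condition, so the first of these shares is partly set by the FPKM minimum. By chromosome, 15.5% to 23.5% of the tested genes rose at least 2-fold, the highest share being that of chromosome X, and 5.18% to 10.5% fell at least 2-fold.

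**Figure D5:**
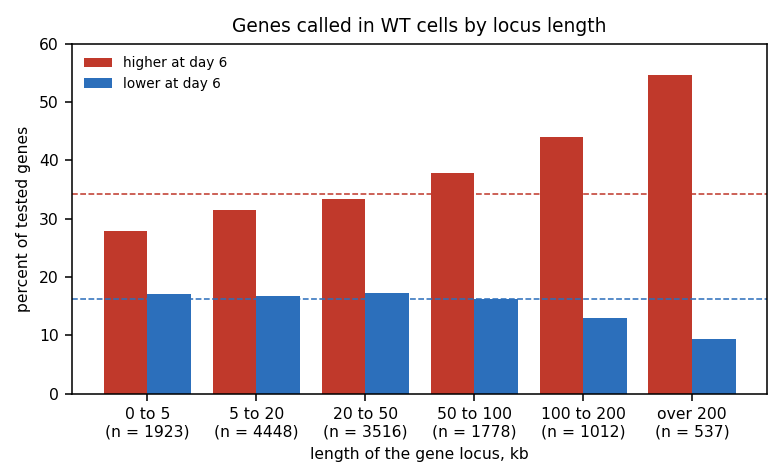
Percent of tested genes higher (red) or lower (blue) at day 6 in WT cells by the length of the gene locus in kb, with the number of genes under each class and dashed lines at the shares over all genes. Rises increased from 27.9% under 5 kb to 54.6% over 200 kb, and falls went from 17.0% to 9.31%.

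The course of WT cells was set beside that of Pcgf5-/- cells, to find where it differs by a test of the difference itself. In limma 408 genes, 3.09% of those tested, had a different change over the 6 days. In 225 of them a gene that rose in WT had the more positive change there, and in 157 a gene that fell in WT had the more negative change there. The change in Pcgf5-/- cells was not always in the same direction. Ephx2 had a log2 difference of -1.89 in WT and of 1.47 in Pcgf5-/- cells, and Fhl1 of 2.19 and -0.34. Nr2f1 had a log2 difference of 4.59 in WT and of 1.75 in Pcgf5-/- cells. That of Ednrb was 5.50 and 2.98, that of the neuronal RNA-binding protein Elavl3 4.04 and 1.47, and that of Pax3 3.72 and 1.17. Esrrb had -4.24 and -1.95, and Zfp42 -3.47 and -1.18. Otx2 rose in Pcgf5-/- cells, from 5.71 and 2.17 FPKM at day 0 to 31.9 and 20.1 FPKM at day 6. In WT it was at 15.1 and 8.49 FPKM at day 0 and at 11.9 and 7.03 FPKM at day 6, so the genotypes differed on both days. Of the core pluripotency genes 8 of 25, of the neural progenitor genes 11 of 35 and of the proneural factors none of 30 differed by this test. These numbers rest on 2 samples per group and changed with the samples used. Without WT day 0 replicate 2, or without Pcgf5-/- day 6 replicate 1, 4 genes were called, and without Pcgf5-/- day 6 replicate 2, 5 were. Without Pcgf5-/- day 0 replicate 2, 13 were, without WT day 6 replicate 2, 41, and without each of the other 3 samples 205 to 347. At an unadjusted p under 0.05 in limma, 3064 of the 13214 genes passed. That count is not corrected for the number of tests and does not give the number of genes that differ.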

How the data were processed

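Each sample had 1 deposited table of FPKM per gene, and each FPKM was made by the authors with Cufflinks 2.1.1 after mapping with TopHat2 2.0.4 to mm9, per the labels, from trimmed reads without exact duplicates. Because duplicates were removed, the highest levels may be lowered. The files hold no counts, so a count model was not used and the depth behind a value is unknown beyond the relative depth given above. Genes with a mean above 1 FPKM in at least 1 condition were tested on log2(FPKM + 1) with limma 3.58.1 (R 4.3.3), with a variance trend, a mean for each of the 4 conditions over all 8 samples and Benjamini-Hochberg adjustment over the tested genes. Adding 1 understates the change of low genes. An SE comes from this fit. The design calls the 2 samples of a group biological replicates, and nothing more is said of their source. The p-values set a difference of means against the spread between these samples within groups, pooled over the 4 conditions. In simulated data with 13214 genes a small part of the genes was changed, far fewer than were called here. Recovery was counted only among changed genes well above the FPKM minimum at day 0. It was 59.8% for 2-fold and 92.6% for 4-fold changes, and 5.26% of the simulated calls were false. These rates do not give the share recovered in the WT comparison, in which many genes began near 0.

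The genes named are the 10 largest rises and falls, the members marked as defining in each list, the 4 largest rises and falls per list and the 10 largest differences between genotypes in each direction, where extremes shorter than 300 bp were passed over, and others chosen after their values were seen. The members and lists were chosen with earlier results of these data known. Columns with the authors' confidence bounds were not used for tests.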

Additional observations from a re-analysis of the deposited data

Results flagged for a closer look

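The test of the difference between genotypes singled out 45 of the 184 named genes tested, with an adjusted p under 0.05 in limma. Over all tested genes the share was 3.09%. Genes were named in part for a large value in this test or a large change in WT. The counts here are therefore partly set by that choice. Each value below is the log2 change over 6 days in WT minus that in Pcgf5-/- cells. In 32 of them WT cells had the larger rise. For neural progenitor and SOX, PAX and POU factors the values were 1.38 for Pax6, 1.77 for Sox11, 1.76 for Sox3, 2.12 for Dbx1, 2.16 for Irx3, 2.17 for Irx5, 2.51 for Pantr1, 2.11 for Pou3f3, 1.97 for Pou3f2, 2.55 for Pax3 and 1.35 for Nes. For Notch genes they were 2.28 for Lfng, 1.72 for Dtx4, 1.64 for Hes5 and 2.15 for Hes3. For genes of neurons and axons the values came to 1.53 for Tubb3, 2.57 for Elavl3 and 2.21 for Efna5. For retinoic acid genes they came to 2.03 for Crabp1, 2.57 for Crabp2, 1.23 for Meis1, 2.84 for Nr2f1 and 1.81 for Rarb. For signalling genes the differences were 2.52 for Ednrb, 1.28 for Jak2, 1.91 for Sfrp2, 2.14 for Fgfr3, 2.1 for Fzd3 and 1.47 for Gli3. For imprinted genes and polycomb the differences came to 1.81 for Nnat, 1.31 for Mest and 1.15 for Phc2. 

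In the other direction the WT change was the lower. For pluripotency genes the values were -1.88 for Nanog, -2.29 for Zfp42, -2.04 for Tcl1, -2.29 for Esrrb, -1.96 for Tfcp2l1, -2.43 for Crxos and -1.99 for Spp1. For other genes they were -2.80 for Otx2, -1.60 for Sox15, -1.58 for Slc38a4, -2.43 for Cox7a1, -2.72 for Ifitm1 and -1.67 for Ifitm3. Otx2 had a log2 difference of -0.28 in WT, without a call, and of 2.52 in Pcgf5-/- cells, and Sox15 of -0.85 and 0.75. Every one of these calls depends on the samples used. In the 8 fits that each left out 1 sample, a gene of this group was called in at most 5, which was the case for Ednrb, and some were called in none. The cause was not tested.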

How the results depend on the processing

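The counts of WT genes higher or lower at day 6 stayed within 1.5 times of those given above with 0.1 or 0.01 added in place of 1, without the FPKM minimum or with a minimum of 5, with WT samples only, without the variance trend, in both other scalings and under the study's rule of 1.5-fold by mean FPKM without a test. A fold of 2 left 2460 higher and 1069 lower genes, and an adjusted p under 0.01 left 1343 lower, in both cases because fewer genes pass a stricter rule. Leaving out 1 WT sample gave 3313 to 3781 higher and 1389 to 1781 lower genes, with the lowest of both without WT day 6 replicate 2.

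The number of genes that differed between genotypes, 408, was 251 and 191 with 0.1 and 0.01 added, 86 without the FPKM minimum and 2 at an adjusted p under 0.01. Leaving out 1 sample gave 4 to 347, with the samples named above. The cause was not tested. Whether replicate numbers pair the samples is not settled. The deviations of same-numbered WT samples had a correlation of -0.04, and the range over pairs of conditions was -0.08 to 0.39. The main fit had no replicate block. With a replicate block added, 4702 genes were higher, 2233 lower and 429 differed between genotypes.

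Of 86 counts of gene list members above 0, 36 moved by over 1.5 times when a WT sample was left out, and 13 of the 53 counts above 5 did. Beside those given with their lists above, these were the rises of glutathione, serine and one-carbon genes, 6 with all samples and 3 to 6 without 1, and the falls of immediate early and stress genes, 7 with all samples and 5 to 12 without 1, with 12 without WT day 0 replicate 2. The rises of mitochondrial ribosome genes were 2 to 8. The other moved counts were of 5 or fewer genes. The cause was not tested.

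Of 162 named genes with a call, none changed direction and 25 lost the call under at least 1 alternative, 19 of them when 1 sample was left out and 4 in another scaling. Those lost in another scaling were Blcap, Notch1, Epcam and Hoxa5. Without single samples the calls of Plagl1, Zic2, Sox15, Notch1, Epcam, Hoxa5, Rara, Syndig1, H19, Dnmt3l, Actl6a, Slc2a1, Ebp, Rhox6, Eomes, Col4a1, Lifr, Blcap and Oaz1-ps were lost at least once. FPKM values carry no counts, so no interval for a level near 0 can be given.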

Other observations

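Some groups not described above moved in parts. Of 21 tested interferon and antigen presentation genes 6 rose and 6 fell, which is 28.6% each, against 34.2% and 16.2% of all genes. The surface proteins Ifitm1 and Ifitm3, which restrict virus entry, fell together. Ifitm1 was at 146 and 153 FPKM at day 0 and at 40.6 and 32.0 FPKM at day 6, and Ifitm3 at 150 and 212 FPKM and then 52.1 and 50.4 FPKM. Oas1a, a sensor of double-stranded RNA, fell by 3.88 on the log2 scale. Tap1, a peptide transporter for MHC class I, rose from 0.833 and 0.449 FPKM to 6.35 and 7.42 FPKM. Of 22 tested germline genes 5 fell and 2 rose, which is 22.7% and 9.09%. Dazl, an RNA-binding protein of germ cells, was at 7.79 and 14.2 FPKM at day 0 and at 1.25 and 0.528 FPKM at day 6, while the homeobox gene Rhox6 rose by 1.35 on the log2 scale.

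Among 42 tested matrix genes 14 rose and 10 fell, which is 33.3% and 23.8% against 34.2% and 16.2% of all genes, and 9 rose and 6 fell without WT day 0 replicate 1. Col2a1, the collagen of cartilage and of early neuroepithelium, was at 0.183 and 0.309 FPKM at day 0 and at 20.9 and 36.2 FPKM at day 6, and Tnc, tenascin C, fell by 2.70 on the log2 scale. Tnc is also made by fibroblasts, whose markers fell in the same samples. Of 19 tested clustered protocadherins, adhesion proteins of neurons, 12 rose and none fell, by up to 1.66 for Pcdhga3. The clustered genes share exons, so their separate values are uncertain. Of 29 tested immediate early and stress genes 4 rose and 7 fell, which is 13.8% and 24.1%. Egr1, a target of growth factor signalling, went from 5.04 and 0.996 FPKM to 12.6 and 15.2 FPKM, and Asns, asparagine synthetase, fell by 2.00 on the log2 scale. Of 60 tested replication histone genes, whose messages mostly lack polyA tails, 1 rose and 5 fell, or 10 and 19 fell with median-ratio scaling and quantile normalization. Of 77 genes of the mitochondrial ribosome 7 rose and 14 fell, or 4 and 24 with median-ratio scaling, and 6 and 4 fell without WT day 0 replicate 2 and WT day 6 replicate 1.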
